A study of Mus musculus with 6 samples.

Results

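The genes described here lie on mouse chromosome 12 in the 20 Mb around Id2. They comprise every gene of the count tables, other than Id2 itself, whose annotated start in the GENCODE annotation of build GRCm38 is within 10 Mb of the Id2 start and which had 10 or more reads in at least 3 of the 6 libraries. Of the 37991 genes in the tables, 124 lay in this window and 54 met the count minimum. All 54 reached the minimum in at least 1 library of each genotype, and 38 reached it in all 6 libraries. The 3 libraries of 1 genotype are enough to meet the rule, so membership is not independent of genotype. The libraries were made from splenic natural killer (NK) cells positive for CD27 and CD11b, in mice of the C57BL6 background. There were 3 wildtype and 3 Rroid-deficient libraries. Rroid is a noncoding RNA that, by the series title, is tied to a cis-regulatory element. The labels give neither the design of the deficient allele nor the age or treatment of the mice, nor if each library had a mouse of its own. The p-values therefore measure the spread between these libraries, which may be technical.

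Id2 encodes a helix-loop-helix protein without a DNA-binding region. It pairs with E proteins, keeps them from DNA, and is needed for the development of NK cells and other innate lymphoid cells. Regulatory elements can act on a promoter over long distances along a chromosome and can pass over nearer genes, mostly within a shared folding domain. Comparing the genes on both sides of Id2 asks whether the genotype difference reaches beyond Id2.

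Reads assigned to genes numbered 5823626 to 9216430 per library. Levels are given as CPM, library-size-scaled read counts after TMM scaling, and the levels of genes are ranked against each other as CPM per kb of exonic length. Plain CPM served for the limits of 5 and 20 CPM, the choice of examples per role group and a rank correlation with the size of the change. The 12 NK cell markers were all detected, with summed levels of 13111 to 15839 CPM in wildtype and 11470 to 12297 CPM in deficient libraries. The 10 T cell markers summed to 60.1 to 86.9 CPM in wildtype and 213 to 264 CPM in deficient libraries. Cd3g (38 to 53 reads in wildtype, 336 to 493 in deficient), Cd3d and Trbc2 made up most of the sum. Cd3e, Cd8a and Cd6 had at most 3 reads in any library. Cd4 and Cd8b1 went the other way, with 57 and 37 reads in wildtype 1 and 0 in every other library. Of the 4 T cell markers tested, 0 passed at an edgeR adjusted p under 0.05, where 0.0171% of all tested genes did. B cell, myeloid and red cell markers summed to at most 19.5 CPM in any library. Whether these markers have a part in the values below was not tested. In wildtype 1 and deficient 1, 5.63% and 5.57% of the tested genes were at 0 reads, against 0.23% to 2.43% in the others. In a bulk sample, fewer cells expressing a gene and less RNA per cell cannot be told apart.

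The promoter sequences of Id2 and of the members next to it on either side are shown for description only. They are RefSeq windows of build GRCm38.p6, 235 bases each, 5′ to 3′ on the gene's own strand. Each runs from 250 to 16 bases before the RefSeq start on that strand, whereas distances use the lower coordinate of each gene. Capitals mark matches, on either strand, to CCAAT, the box bound by the factor NF-Y, or to TTTCNNTTTC, the core of the interferon-stimulated response element. The table held a window for 44 of the 55 genes (the 54 members and Id2).
Kidins220 (chr12:24974682-24974916, plus strand): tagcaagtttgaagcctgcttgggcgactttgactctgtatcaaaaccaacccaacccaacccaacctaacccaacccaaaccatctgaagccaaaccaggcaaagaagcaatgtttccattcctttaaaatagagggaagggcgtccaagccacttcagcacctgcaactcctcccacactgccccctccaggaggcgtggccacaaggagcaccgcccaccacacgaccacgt
Id2 (chr12:25096108-25096342, minus strand): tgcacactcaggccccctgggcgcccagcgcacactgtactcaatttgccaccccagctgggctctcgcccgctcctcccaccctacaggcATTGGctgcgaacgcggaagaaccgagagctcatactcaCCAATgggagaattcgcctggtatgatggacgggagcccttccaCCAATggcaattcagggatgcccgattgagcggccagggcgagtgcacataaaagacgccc
Rnf144a (chr12:26415278-26415512, minus strand): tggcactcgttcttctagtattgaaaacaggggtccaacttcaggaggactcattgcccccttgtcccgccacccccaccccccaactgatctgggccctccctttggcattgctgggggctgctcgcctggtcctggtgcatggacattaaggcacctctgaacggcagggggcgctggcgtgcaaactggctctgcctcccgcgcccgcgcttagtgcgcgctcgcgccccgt
Rsad2 (chr12:26456468-26456702, minus strand): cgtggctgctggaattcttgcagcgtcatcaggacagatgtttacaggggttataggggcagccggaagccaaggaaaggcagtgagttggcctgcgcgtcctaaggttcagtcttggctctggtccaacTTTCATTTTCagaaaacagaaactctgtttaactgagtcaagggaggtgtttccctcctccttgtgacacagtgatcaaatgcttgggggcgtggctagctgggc
Cmpk2 (chr12:26468965-26469199, plus strand): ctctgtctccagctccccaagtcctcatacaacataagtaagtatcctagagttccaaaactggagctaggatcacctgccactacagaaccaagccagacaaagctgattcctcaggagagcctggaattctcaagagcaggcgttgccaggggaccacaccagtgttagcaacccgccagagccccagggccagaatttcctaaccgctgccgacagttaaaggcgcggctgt
The Id2 window held 3 CCAAT matches. Of 32851 promoter stretches of the same length, 2.51% held 3 or more and 32.6% held at least 1. The Kidins220, Rnf144a, Rsad2 and Cmpk2 windows held none. The Rsad2 window held 1 match to TTTCNNTTTC, which 2.80% of all windows hold. The Id2 and Rnf144a windows held 14 and 15 CG dinucleotides, and the other 3 windows held 6 each.

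Id2 fell in the deficient libraries, and none of its measured neighbours within 10 Mb passed the test. Id2 had 468, 338 and 341 CPM in the wildtype libraries and 38.9, 66.7 and 81.2 CPM in the deficient libraries, with no overlap. Its log2 fold change was -2.62 (SE 0.30, edgeR adjusted p = 0.0308). The value lay between -2.86 and -2.37 when any 1 library was left out, and Id2 did not pass in those fits (edgeR adjusted p of 0.0589 to 0.316). Of the 54 members, 53 were tested and 0 passed at an adjusted p under 0.05. Of all 11724 tested genes 2 passed (0.0171%), and the 1 that was lower (0.00853%) is Id2 itself. With so few genes called, the 0 does not set the members apart from other genes. The remaining member, the pseudogene 3110053B16Rik, had too few reads for the test. DESeq2 also called 0 members, where it called 0.569% of the 11433 genes with an adjusted p (0.332% higher, 0.236% lower). It gave no adjusted p for the members Adi1, Prkar2b and Zfp125, which therefore could not be called. Without a filter on low counts edgeR also called 0 members, where it called 0.495% of its genes. At an unadjusted p under 0.05 there were 3 members, 1 higher and 2 lower. This is 5.66% of those tested, against 5.29% of all genes tested (2.76% higher, 2.52% lower). The CPM of the genotypes did not overlap in 3 members, 1 higher and 2 lower, again 5.66%. The share among all genes tested was 12.4% (6.03% higher, 6.33% lower).

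A negative log2 fold change was fitted for 27 and a positive one for 26. Negative values made up 50.9% of the tested members and 48.4% of all tested genes. The members' median log2 fold change was -0.03, that of all tested genes 0.02, and that of the 322 tested chromosome 12 genes further than 10 Mb from Id2 0.04. The median size of the change, regardless of direction, was 0.46 for members, 0.45 for all tested genes and 0.45 for the further chromosome 12 genes. In the main edgeR fit the members' log2 fold changes ran from -1.67 to 2.03. Id2, at -2.62, had the lowest value there of the 54 genes tested in the window. With limma-voom and with the replicate block, Adi1 lay lower than Id2, as described below.

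**Figure D1:**
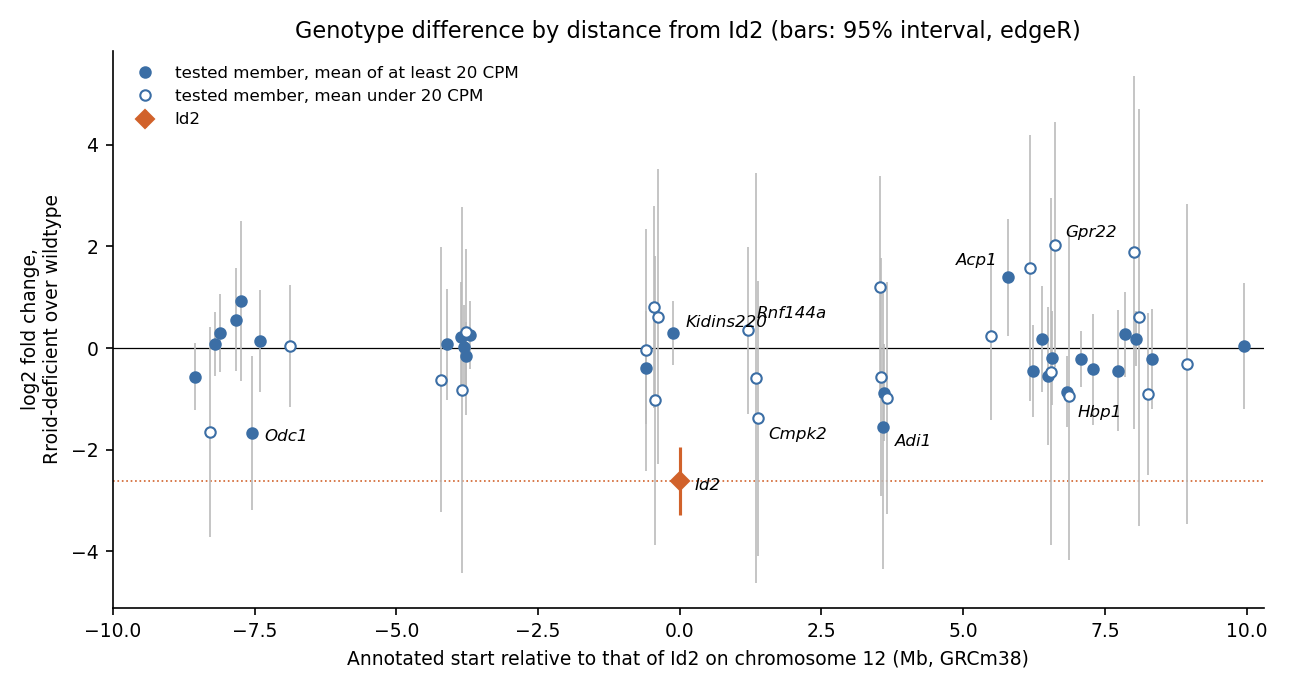
Log2 fold change (Rroid-deficient over wildtype) of the 53 tested members and Id2 against the distance of their annotated starts from that of Id2 in Mb; points are edgeR estimates, bars 95% intervals, filled points members with a mean of at least 20 CPM, and the dotted line the Id2 value of -2.62. Members lie on both sides of 0, and in this fit no member lies as low as Id2.

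How much a member could have changed without being seen depended on its level. The 95% interval of the log2 fold change lay wholly above the Id2 value for 39 of the 53 tested members, or 73.6%, where this held for 79.5% of all tested genes. Among the 29 members with a mean of at least 20 CPM it did so for 27, with a median SE of 0.44. Of all tested genes at that level it did so for 97.6%, so this is no trait of the members. Among the 24 under 20 CPM it did so for 12, with a median SE of 1.13, and the share of all genes at that level was not computed. The interval left out a 2-fold fall for 17 members, or 32.1%, against 38% of all tested genes. For 7 members it left out a 2-fold change in either direction, a count without a computed share of all genes. The other members may have changed 2-fold in at least 1 direction without being called.

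Both sides together, the differences had no order by distance from Id2. Within 1 Mb, 6 members were tested, 3 with a negative and 3 with a positive value, and their median log2 fold change was 0.13. From 1 to 2 Mb the median of the 3 tested members was -0.59, from 2 to 5 Mb that of 13 members was -0.16, and from 5 to 10 Mb that of 31 members was 0.04. The median SE of a single member's value in these bins was 0.98, 1.22, 0.73 and 0.53. It does not measure the uncertainty of a bin's median, which was not tested. By side, the medians had opposite signs. On the side of lower coordinates they were 0.13 within 1 Mb (6 members), 0.05 from 2 to 5 Mb (8 members) and 0.08 from 5 to 10 Mb (9 members). On the side of higher coordinates they were -0.59 from 1 to 2 Mb (3 members), -0.88 from 2 to 5 Mb, where 4 of 5 members had negative values, and -0.20 from 5 to 10 Mb, where 12 of 22 did. The difference between the sides was not tested, and the 5 members from 2 to 5 Mb lie in 1 cluster that is described with Adi1. Across the 53 tested members Spearman's rank correlation of distance with the log2 fold change was 0.0079, and with its size regardless of direction -0.11. The members' mean CPM, not scaled by length, had a rank correlation of -0.46 with the size of the change, so that members at lower CPM tended to larger fitted values. These coefficients describe genes that share the same 6 libraries, and genes are not independent replicates.

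The sides of Id2 were unlike in gene content. On the side of lower coordinates were 24 members, and the nearest, Kidins220, starts 119 kb away. On the side of higher coordinates were 30 members, and the nearest, Rnf144a, starts 1.21 Mb away. In between, the annotation lists 13 entries, 9 of them long intergenic noncoding RNAs. The count tables, made with an older annotation, hold 1 of the 13, a ribosomal RNA entry with 0 reads in every library. Transcripts of this stretch, Rroid among them, were therefore not analysed here.

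Kidins220, a membrane scaffold protein that binds neurotrophin and antigen receptors, was the member closest to Id2. It had 163, 178 and 283 CPM in the wildtype libraries and 340, 211 and 217 CPM in the deficient libraries. The genotypes overlapped, with the highest value in deficient 1. Its difference on the log2 scale was 0.30 with an SE of 0.28 (edgeR adjusted p = 0.936), and a 2-fold fall lies outside the 95% interval of -0.33 to 0.92. Without deficient 1 the value was 0.034 and without the first library of both genotypes -0.11, neither with a call. Set against Kidins220 within each library, the log2 ratio of Id2 to this neighbour was 0.90 ± 0.62 in wildtype and -2.06 ± 0.92 in deficient libraries (SD, n = 3 each), with a two-sided exact permutation p of 0.1. That is the smallest p that 3 against 3 libraries allow, and it is 0.2 after adjustment over the 2 neighbours compared. The difference of -2.96 corresponds to a 7.78-fold fall of Id2 relative to Kidins220.

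The nearest member with at least 20 CPM on the other side was Adi1, an enzyme of the methionine salvage pathway, 3.58 Mb away. The log2 ratio of Id2 to Adi1 was 2.73 ± 0.59 in wildtype and 3.71 ± 2.78 in deficient libraries (SD, n = 3 each, exact permutation p = 0.6, adjusted p = 0.6). It was 5.40, 5.22 and 0.50 in the deficient libraries, of which the first and second had 3 and 8 reads of Adi1. The difference between genotypes therefore moved with the pseudocount, from 0.97 at 0.5 CPM to 1.35 at 0.1 and 0.28 at 2 CPM, and it was 2.58 without deficient 3 and 0.12 without deficient 1.

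The other members within 1 Mb lie 386 to 601 kb from Id2, on the side of lower coordinates. Rrm2, the small subunit of ribonucleotide reductase, which makes DNA precursors in dividing cells, had 0.30, 18.04 and 7.55 CPM in wildtype and 25.5, 0.82 and 13.4 CPM in deficient libraries. Both genotypes held a library near 0 and a library at 18 CPM or more, with a log2 fold change of 0.61 (SE 1.30). Klf11, a zinc finger transcription factor linked to TGF-beta signalling, had 8.09, 3.33 and 12.1 CPM in wildtype and 9.80, 0.16 and 1.52 CPM in deficient libraries. In deficient 2 it had 1 read. Its log2 fold change of -1.03 came with an SE of 1.28, so its interval held both the Id2 value and positive values. It was -3.18 without deficient 1 and -0.47 without deficient 2, neither with a call.

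Taf1b, a subunit of the factor that brings RNA polymerase I to ribosomal DNA, had 61.9, 29.0 and 29.6 CPM in wildtype and 19.0, 38.01 and 35.3 CPM in deficient libraries. The means differed through the first library of each genotype, which held the highest and the lowest value. Its log2 fold change was -0.38 (SE 0.50), and it was 0.059 without wildtype 1. The pseudogene Gm6969 had 4.04, 4.83 and 2.99 CPM in wildtype and 7.06, 7.83 and 5.95 CPM in deficient libraries. It was the single member within 2 Mb whose CPM did not overlap between genotypes, although its raw counts of 19 to 45 and 43 to 49 did, and its log2 fold change was 0.81 (SE 0.89). The pseudogene Gm16372 had 2.40, 5.26 and 1.73 CPM in wildtype and 2.88, 4.24 and 2.07 CPM in deficient libraries. Reads of such processed pseudogenes may stem from their parent genes, and their assignment is uncertain.

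Of the non-member entries within 1 Mb, 3 had reads at levels too low to describe a difference. Mboat2, a phospholipid acyltransferase gene between Rrm2 and Kidins220, had 3 reads in all 6 libraries together. The transcription factor gene Grhl1 had 12 reads and Cys1 had 2. A gene with almost no reads thus lay between Kidins220, at 24.0 CPM per kb in wildtype, and Rrm2, at 3.11.

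On the other side, 3 members lie 1.21 to 1.38 Mb from Id2. Rnf144a, an E3 ubiquitin ligase of the RBR type, had 6.74, 20.6 and 16.04 CPM in wildtype and 31.0, 17.8 and 6.64 CPM in deficient libraries. The deficient range enclosed the wildtype range, with a log2 fold change of 0.35 (SE 0.74). Rsad2, which encodes the interferon-induced antiviral protein viperin, had 0, 10.2 and 1.26 CPM in wildtype and 0, 2.12 and 5.53 CPM in deficient libraries. The count of 0 in the first library of each genotype allows up to 0.449 CPM in wildtype 1 and 0.432 CPM in deficient 1, for counting error only. Cmpk2, a mitochondrial nucleotide kinase that lies beside Rsad2 and is induced with it by interferon, had 1.50, 19.9 and 5.51 CPM in wildtype and 1.87, 0.82 and 7.61 CPM in deficient libraries. Both genes were highest in wildtype 2 and next highest in deficient 3. Of these 2 interferon-induced genes 0 passed, and their log2 fold changes were -0.59 (SE 1.81) for Rsad2 and -1.38 (SE 1.22) for Cmpk2. Without wildtype 2, that of Rsad2 was 1.99 and that of Cmpk2 -0.030, and without deficient 3 they were -1.86 and -2.73, none with a call. The neighbouring starts thus shared their order of libraries at the top, while the motif TTTCNNTTTC was found in the printed Rsad2 window and not in that of Cmpk2.

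**Figure D2:**
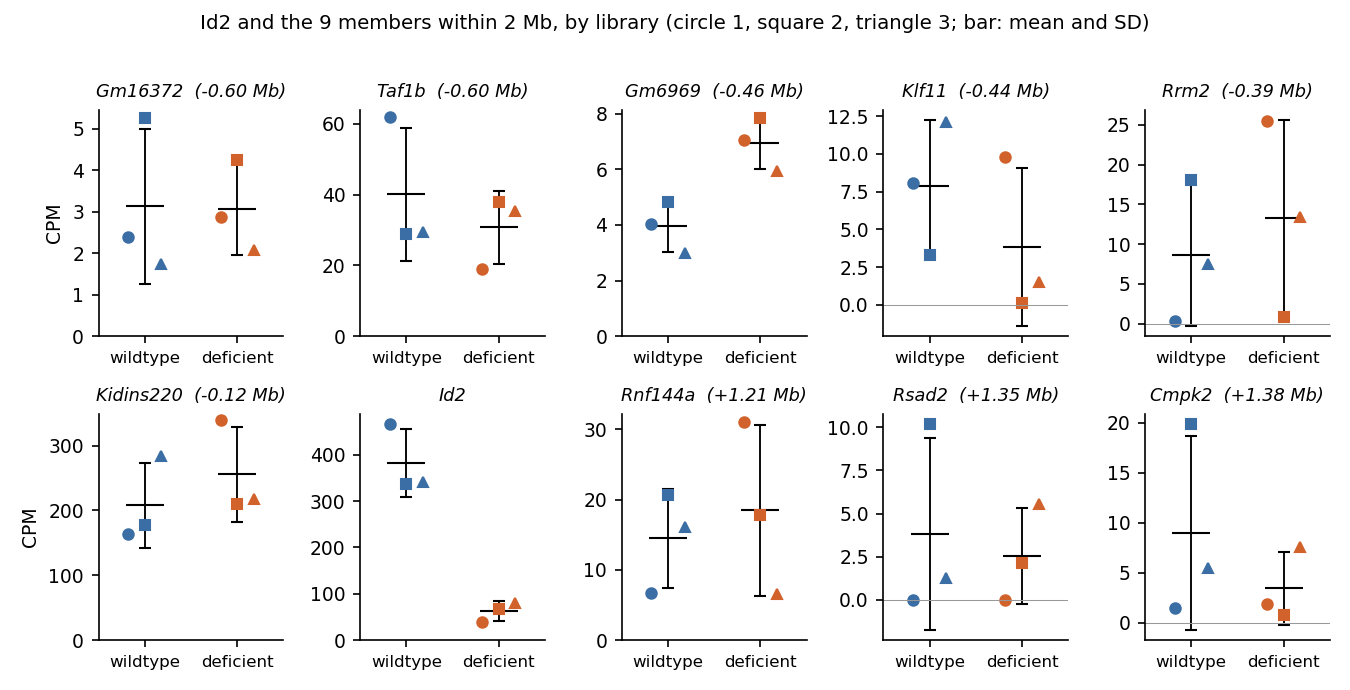
CPM of Id2 and of the 9 members within 2 Mb in each library, with the distance of the start from Id2 in each heading; symbols are libraries 1 to 3, and bars the mean and SD of 3. Id2 is separated, at 338 to 468 CPM against 38.9 to 81.2 CPM, and of the 9 members Gm6969 alone shows no overlap, at 2.99 to 4.83 against 5.95 to 7.83 CPM.

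In wildtype, Id2 stood at 156.8 CPM per kb of exonic length, the highest of the 55 genes, and 1.53% of all tested genes were higher. Adi1 came next at 30.9, then Hbp1 at 24.6, Ywhaq at 24.5, Kidins220 at 24.0 and Pik3cg at 23.4 CPM per kb. In deficient libraries Id2 stood at 25.5 CPM per kb, ranked 3 behind Kidins220 at 29.5 and Ywhaq at 29.3, and 13.1% of all tested genes were higher. The median member had 7.02 CPM per kb and the median tested gene 6.20. The median wildtype level was 9.26 CPM per kb within 1 Mb, 1.97 from 1 to 2 Mb, 6.38 from 2 to 5 Mb and 7.68 from 5 to 10 Mb. Spearman's rank correlation of distance with level over the 54 members was 0.02. The lowest member was Hdac9, a class IIa histone deacetylase gene, at 0.20 CPM per kb in wildtype and 0.16 in deficient libraries, and the highest by its mean over all libraries was Ywhaq, a 14-3-3 adaptor protein gene. Members came in clusters along the chromosome. The widest gap between neighbouring member starts was 3.10 Mb, from Ywhaq to Gm16372.

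**Figure D3:**
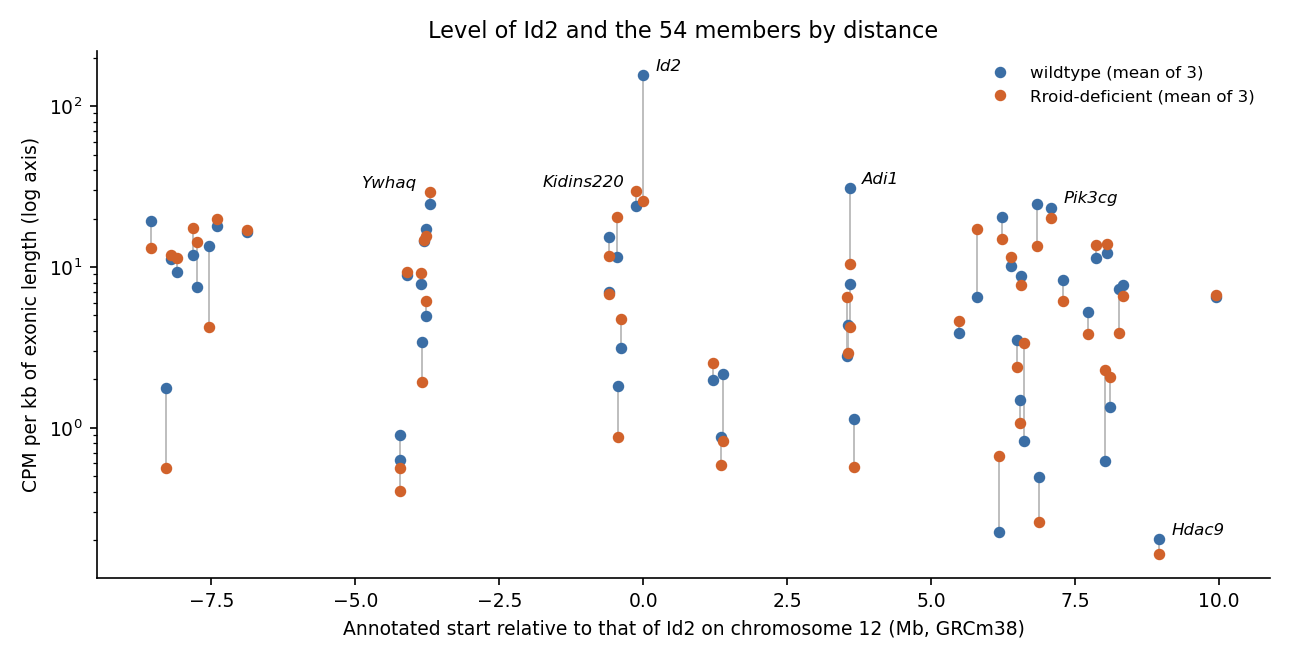
Mean CPM per kb of exonic length (log axis) of Id2 and the 54 members in wildtype (blue) and Rroid-deficient (orange) libraries, 3 each, against the distance of their starts from that of Id2 in Mb; grey lines join the means of a gene. Id2 drops from 156.8 to 25.5 CPM per kb, into the range of its most abundant neighbours, while Kidins220 is at 24.0 and 29.5.

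Signalling and adaptor genes were the largest group of members with a known role, and 0 of 12 passed. A positive log2 fold change was fitted for 8 and a negative one for 4, with a median of 0.11. Pik3cg, the catalytic subunit of the PI3-kinase that acts downstream of G protein-coupled receptors in leukocytes, had 208, 189.95 and 193 CPM in wildtype and 135, 230.02 and 147 CPM in deficient libraries. Its deficient libraries spread to either side of the wildtype range, with a log2 fold change of -0.21 (SE 0.25). Rock2, a kinase that acts on the actin cytoskeleton, had 156 ± 31.3 CPM in wildtype and 165 ± 54.3 CPM in deficient libraries (SD, n = 3 each), with a log2 fold change of 0.08 (SE 0.28). It was -0.22 without deficient 2. For Pik3cg and Rock2 the interval left out a 2-fold change in either direction. Adam17, the protease that sheds TNF and the Fc receptor CD16 from leukocytes, had 124 ± 19.9 and 111 ± 35.2 CPM, and Ywhaq had 75.0 ± 14.2 and 89.8 ± 14.3 CPM.

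In the group of nucleotide, polyamine and cell division genes, to which Acp1 was also assigned, 0 of 9 passed. A positive log2 fold change was fitted for 2 and a negative one for 7, with a median of -0.86. The role groups share genes, so their tallies are not separate results. Acp1 also counts among signalling genes, Hbp1 and E2f6 among transcription genes, and Odc1, Adi1 and Nampt among metabolic enzymes. Hbp1, which encodes an HMG-box transcription factor that restrains entry into the cell cycle, had 176, 151 and 128 CPM in wildtype and 51.5, 91.2 and 108 CPM in deficient libraries. Each deficient library was under each wildtype library, with a log2 fold change of -0.86 (SE 0.32, edgeR unadjusted p = 0.0211, adjusted p = 0.906). Odc1, ornithine decarboxylase, which starts polyamine synthesis, had 94.7, 23.1 and 20.8 CPM in wildtype and 11.4, 10.4 and 21.6 CPM in deficient libraries. Wildtype 1 stood far above the other 5, and the log2 fold change of -1.67 (SE 0.68, edgeR unadjusted p = 0.0336, adjusted p = 0.914) was -0.61 without it. Acp1, a low molecular weight protein tyrosine phosphatase, had 23.1, 26.6 and 21.6 CPM in wildtype and 95.7, 66.9 and 24.1 CPM in deficient libraries. Deficient 3 lay within the wildtype range, and the other deficient libraries lay above it. The log2 fold change was 1.39 (SE 0.51, edgeR unadjusted p = 0.0223, adjusted p = 0.906), and 0.93 without deficient 1. Hbp1, Odc1 and Acp1 were the 3 members at an unadjusted p under 0.05, and they lie 5.80 to 7.55 Mb from Id2.

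Transcription and RNA genes held 10 tested members, of which 0 passed, 3 had a positive and 7 a negative log2 fold change, and the median was -0.35. Beside Hbp1 and Taf1b, Cpsf3, the nuclease that cuts pre-mRNA at its 3′ end, had 99.6, 66.4 and 63.5 CPM in wildtype and 44.1, 94.8 and 93.8 CPM in deficient libraries. The ranges overlapped, with deficient 1 below every wildtype library, and the log2 fold change was 0.02 (SE 0.37). Twistnb, a subunit of RNA polymerase I, had 39.6 ± 10.2 and 34.1 ± 10.8 CPM (SD, n = 3 each). Atxn7l1os2, an antisense transcript of Atxn7l1, had 13.3, 17.4 and 13.5 CPM in wildtype and 4.18, 8.65 and 10.8 CPM in deficient libraries. Its genotypes did not overlap, and the fitted log2 value of -0.91 had an SE of 0.71 (edgeR adjusted p = 0.925). Its partner Atxn7l1 had 123 ± 10.7 and 140.1 ± 25.1 CPM, and since the amplification kit does not mark strand, reads of both cannot be told apart where they overlap.

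Of 9 secretory and trafficking genes 0 passed, with 5 positive and 4 negative values and a median log2 fold change of 0.04. Sypl, a synaptophysin-like vesicle membrane protein, had 111, 93.5 and 79.3 CPM in wildtype and 177, 61.8 and 104 CPM in deficient libraries. Its deficient libraries included the highest and the lowest of the 6. Trappc12, a subunit of a vesicle tethering complex, had 109, 59.4 and 67.01 CPM in wildtype and 34.6, 27.6 and 65.8 CPM in deficient libraries, with a fitted log2 value of -0.88, SE 0.43 (edgeR adjusted p = 0.918). Deficient 3 lay among the wildtype libraries, and deficient 1 and 2 below them. Pqlc3 had 50.2 ± 6.71 and 61.3 ± 13.1 CPM, and Pdia6, a disulfide isomerase of the endoplasmic reticulum, had 44.5 ± 23.6 and 65.7 ± 15.04 CPM. Snx13, a sorting nexin and the outermost member on the side of higher coordinates at 9.95 Mb, had 51.3 ± 34.1 and 52.8 ± 12.3 CPM.

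Metabolic enzymes held 6 tested members, with 0 passing, 1 positive and 5 negative values and a median log2 fold change of -0.51. Lpin1, a phosphatidate phosphatase of lipid synthesis and the outermost member on the side of lower coordinates at 8.56 Mb, had 242, 179 and 141 CPM in wildtype and 109.98, 97.1 and 174 CPM in deficient libraries. Its ranges overlapped through deficient 3, with a fitted log2 value of -0.56, SE 0.30 (edgeR adjusted p = 0.925). Dld, the dihydrolipoamide dehydrogenase of the mitochondrial 2-oxoacid complexes, had 60.5, 103 and 62.1 CPM in wildtype and 30.3, 72.6 and 61.8 CPM in deficient libraries, a log2 fold change of -0.46 (SE 0.41).

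Adi1 had 49.1, 45.3 and 80.5 CPM in wildtype and 0.43, 1.31 and 57.4 CPM in deficient libraries, from raw counts of 328, 422 and 512 against 3, 8 and 415. Deficient 1 and 2 were close to 0 and deficient 3 lay within the wildtype range, so that the log2 fold change of -1.56 had an SE of 1.25 (edgeR adjusted p = 0.925). It was -6.06 without deficient 3 (edgeR adjusted p = 0.185), lower than the Id2 value, and -0.99 without deficient 1. With limma-voom it was -3.92 and with the replicate block -4.07, neither with a call. Id2 was at -2.65 and -2.66 in the same fits of all 6 libraries, so Adi1 lay lower there too. Adi1 lies in a cluster of 5 members whose starts span 121 kb, with the ribosomal protein gene Rps7, the RNase H1 gene Rnaseh1, Trappc12 and Eipr1. This cluster was singled out after its values were seen. In 4 of these 5 genes deficient 1 had the lowest CPM of the 6 libraries, and in the fifth, Trappc12, deficient 2 did. Over the 51 tested members without a tie, deficient 1 was lowest in 45.1%, against 26.5% of all tested genes. Wildtype 1, the other library with many tested genes at 0, was lowest in 13.7% of members and 28.1% of all tested genes. What part the number of genes at 0 has in these values was not tested.

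**Figure D4:**
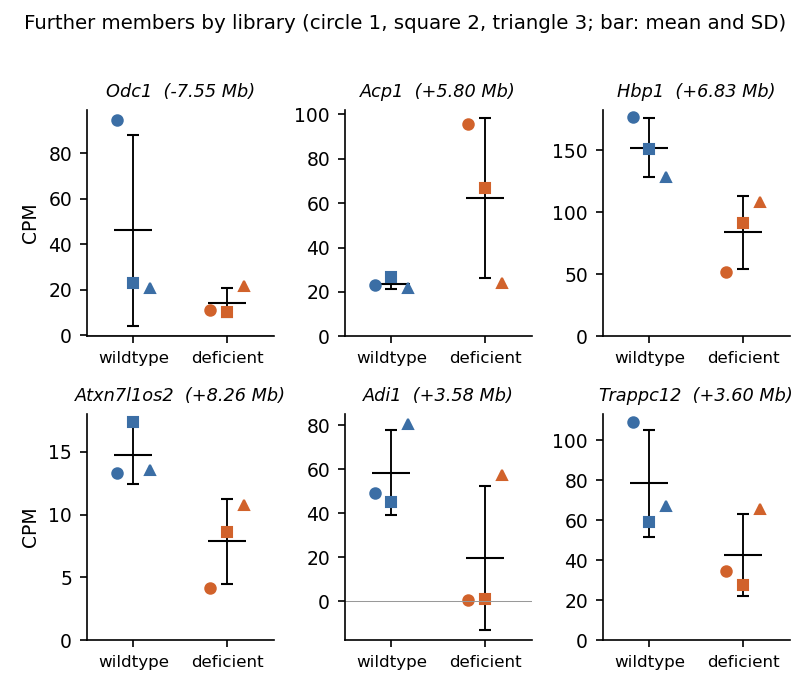
CPM by library of Odc1, Acp1, Hbp1 and Atxn7l1os2, the members beyond 2 Mb with an unadjusted p under 0.05 or, at a mean of at least 5 CPM, no overlap between genotypes, and of Adi1 and Trappc12; symbols are libraries 1 to 3, and bars the mean and SD of 3. Hbp1 and Atxn7l1os2 do not overlap, wildtype 1 sets the Odc1 mean, and deficient 3 stands with the wildtype libraries in Acp1, Adi1 and Trappc12.

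Several of the members with low counts were present in some libraries and close to absent in others. At least 1 library had 3 or fewer reads in 11 of the 54 members, while 38 members had 10 or more reads in all 6 libraries. Deficient 1 had 5 members at 0 and wildtype 1 had 3, against 1 in deficient 2 and 0 in the other libraries. F730043M19Rik, a noncoding transcript that shares a promoter region with a neighbouring gene, had 0, 2.90 and 5.66 CPM in wildtype and 25.1, 0.49 and 6.08 CPM in deficient libraries. Gpr22, an orphan G protein-coupled receptor gene, had 1.80, 1.07 and 8.49 CPM in wildtype and 28.7, 14.4 and 3.32 CPM in deficient libraries, and its log2 fold change of 2.03 (SE 1.08) was the highest of the members. Both were named after their values were seen.

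**Figure D5:**
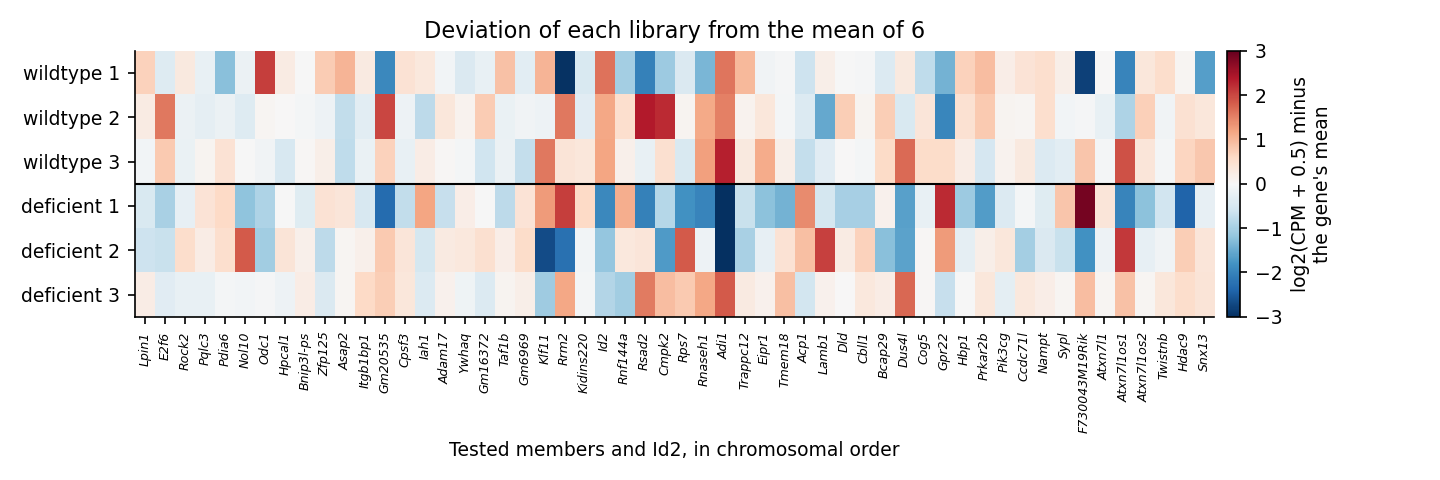
Log2(CPM + 0.5) of each library minus the gene's mean over the 6 libraries, for the 53 tested members and Id2 in chromosomal order; colours stop at 3 in either direction. Id2 is above its mean in the 3 wildtype libraries and below it in the 3 deficient libraries, while Rrm2, Adi1 and F730043M19Rik differ more between libraries of 1 genotype.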

How the data were processed

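Per the labels' protocols, RNA amplification used Ovation RNA-Seq V2, a kit that does not mark strand, and sequenced as single reads. The submitters' processing notes list DESeq2, HTSeq 0.6.1, TopHat2 2.1.0 and Trimmomatic 0.33, with mm9 and NCBIM37 as builds. The authors deposited raw counts per Ensembl gene for each library. Rows that name no gene held 80.0% to 84.4% of the summed counts and were left out. Of the counts in the no-feature, ambiguous and gene rows together, 72.8% to 79.1% had no feature. The strand setting of HTSeq is unknown here.

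Distances, symbols and exonic lengths came from GENCODE M21 (GRCm38), another build than that of the counts, and start means the lower coordinate. Of 37991 genes, 32919 had an entry there. Counts were tested with edgeR 4.0.16 in R 4.3.3 (TMM, filterByExpr, quasi-likelihood test of genotype, no block, Benjamini-Hochberg over 11724 genes), checked on simulated data. SE were derived from the F statistic. Ratios of Id2 to a neighbour used a pseudocount of 0.5 CPM. Alternatives were RLE or no scaling, DESeq2 1.42.0, limma-voom (limma 3.58.1), other filters, left-out libraries, a replicate block, other windows, starts and count minimums. Figures were drawn with matplotlib 3.10.9.

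Members, role groups and tests were chosen with earlier results of these data known. Named were Id2, members within 2 Mb, those at an unadjusted p under 0.05 or without overlap at 5 CPM or more, up to 4 of highest CPM per role group, the outermost members, and those of highest and lowest CPM per kb. Adam17, Atxn7l1, Gpr22, F730043M19Rik, Rps7, Rnaseh1 and Eipr1 were added after their values were seen. A floor of 3 reads corresponds to 0.322 to 0.489 CPM. Any 2 libraries differed by more than sampling noise, with a chi-square divided by its degrees of freedom of 19.2 or more.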

Additional observations from a re-analysis of the deposited data

How the results depend on the processing

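No member was called in any of the alternatives, although DESeq2 gave no adjusted p for Adi1, Prkar2b and Zfp125. The members' median log2 fold change lay between -0.20 and 0.06 in all of them. Id2 stayed negative throughout but did not pass with the replicate block (-2.66, edgeR adjusted p = 0.309), when any 1 library was left out (-2.86 to -2.37), or without the first library of both genotypes (-2.20, edgeR adjusted p = 0.0791). Libraries of the same replicate number did not deviate together (correlations of 0.0069, -0.02 and 0.03), so the numbers were not taken as pairs, and not every library correlated best with its own number. Under the block 3 members had an unadjusted p under 0.05, as without it, beside 3.88% of all genes tested. That number was 5 of 54 without a filter (all genes 7.44%). With 1 library left out it ran from 1 of 54 without deficient 2 (all genes 5.02%) to 7 of 53 without deficient 3 (all genes 7.86%). Members without overlap ran from 5 of 54 without wildtype 2 (all genes 19.8%) to 17 of 53 without deficient 3 (all genes 26.4%). Without deficient 3 both shares of members were above those of all genes, a difference that was not tested. Without the first libraries of both genotypes 17 of 53 members did not overlap, beside 37.6% of all genes. Fewer libraries overlap less often by construction. Windows of 5 and 2 Mb held 23 and 9 members, of which 0 and 0 had an unadjusted p under 0.05, and 1 and 1 did not overlap. A strand-aware start gave the same 54 members.

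Of 27 named members, 12 changed sign somewhere, each without a call. Snx13 was -0.032 with library sizes alone, Cpsf3 -0.028 with limma-voom and -0.018 with the replicate block, and Gm16372 0.067 with the block. With 1 library left out the ranges were -0.22 to 0.25 for Rock2, -0.15 to 0.30 for Cpsf3, -0.34 to 0.56 for Gm16372, -0.57 to 0.059 for Taf1b, -0.28 to 1.75 for Rrm2, -0.25 to 0.75 for Rnf144a, -1.86 to 1.99 for Rsad2, -0.20 to 0.56 for Sypl, -0.48 to 0.0081 for Twistnb, -0.84 to 0.27 for Hdac9 and -0.41 to 0.53 for Snx13. Without the first libraries of both genotypes the values were 0.32 for Taf1b, -0.84 for Rrm2, -0.11 for Kidins220, -0.60 for Rnf144a, -0.066 for Sypl, 0.22 for Twistnb, 0.10 for Hdac9 and -0.22 for Snx13. The cause was not tested.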

Other observations

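The window held 70 entries under the count minimum, of which 50 had 0 reads in every library and 20 had at least 1. Together these 70 had 378 reads over the 6 libraries, against 99835 for the 54 members. Trib2, a pseudokinase gene 9.30 Mb from Id2 on the side of lower coordinates, had 1, 21 and 22 reads in wildtype and 0 in all 3 deficient libraries. Slc26a3, an anion exchanger gene on the other side, had 45, 0 and 2 reads in wildtype and 0 in every deficient library. Alkal2, a ligand gene for the kinases ALK and LTK, had 54 reads in deficient 2 and at most 4 elsewhere. These entries were picked after their values were seen and none entered a comparison.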
